A study of Mus musculus with 12 samples.

Results

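The genes of iron and heme handling followed here, in whole-liver RNA-seq of septic mice, are Hamp, Hamp2, Bmp6, Tfr2, Slc40a1, Tfrc, Fth1, Ftl1, Hp and Hpx, 10 in all. They are the rows that carry these symbols among the 25611 genes of the count table, with no threshold on a measured value. All 10 passed the low-count filter, which kept 13190 genes. The 12 livers came from male C57BL/6J mice aged 8 to 10 weeks, with 4 mice in each of 3 groups. Sham mice had only the abdominal incision, CLP mice had the cecum tied off and punctured 2 times (cecal ligation and puncture, a model of polymicrobial sepsis), and CLP+DCA mice had the same surgery followed by dichloroacetate (DCA), an inhibitor of pyruvate dehydrogenase kinase, injected intraperitoneally at 25 mg/kg 24 hr after surgery. All livers were taken 30 hr after surgery, 6 hr after the injection. The labels describe the mice as given their respective drugs and do not say what, if anything, sham and CLP mice were injected with.

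The liver is the main source of the hormone hepcidin, encoded by Hamp. Hepcidin binds the iron exporter ferroportin (Slc40a1) and removes it from the cell surface, so that iron is held in macrophages and hepatocytes. Its transcription is known to be raised by BMP6 through SMAD proteins and by IL-6 through STAT3, and it is a textbook part of the response to infection. Iron enters cells bound to transferrin through the receptor Tfrc, is stored in ferritin (heavy chain Fth1, light chain Ftl1), and is sensed in hepatocytes with the help of Tfr2. Hemoglobin and heme set free in plasma are bound by haptoglobin (Hp) and hemopexin (Hpx), which hepatocytes secrete as acute phase proteins.

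Library depth, as reads counted on genes, ran from 24436513 to 44266819 per mouse. Expression is given in CPM, read counts scaled to library sizes that were adjusted by TMM. Groups were compared by edgeR's quasi-likelihood test, fitted once to the 12 mice, and a gene is called where its Benjamini-Hochberg adjusted p over the 13190 genes is below 0.05. Each log2 fold change (log2FC) is given with its standard error (SE). Hepatocyte markers were detected in every mouse, and the summed level of the 8 markers was 68854 to 87841 CPM in sham, 35396 to 51862 CPM in CLP and 31546 to 63752 CPM in CLP+DCA. Most of this sum and of its fall was Alb, albumin (46672 CPM in sham and 21571 CPM in CLP on average), the only one of the 8 called in CLP versus sham. The estimates of 6 of the 8 were lower in CLP, with a median log2FC of -0.46 over the list. The other 2, Hnf4a (log2FC 0.05) and Apob (0.26), were not lower. In whole tissue, fewer cells of a type and less RNA per cell cannot be told apart. One library stood apart from its group: over all genes tested, CLP+DCA mouse 3 differed from the other mice of its group by 1.01 log2 CPM (mean of the root mean square differences) and from the CLP mice by 0.73, while the other 3 CLP+DCA mice differed from the rest of their group by 0.57 to 0.63. Members' results that rest on this mouse are given with and without it. The mouse was singled out from these same data and lay nearer the CLP mice. Leaving it out therefore makes a difference between CLP+DCA and CLP easier to call, and calls made only without it are given as a description.

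Mice carry a pair of hepcidin genes, Hamp and Hamp2, on the minus strand of chromosome 7 (GRCm38, 30942369 to 30944029 for Hamp, 30922372 to 30924181 for Hamp2). Hamp2 had the largest log2FC of the 10 genes, and its close copy is expressed far more strongly. The longest stretch shared by the 2 transcripts was 87 bases, shorter than the 100-base reads, and none of the 100-base windows of either transcript occurred in another gene of the annotation. This search was for exact matches only. The 2 transcripts were 92.38% identical, and whether reads with mismatches were counted for the wrong copy was not tested.

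The promoters of the pair were compared because both arms of hepcidin control act there. The 250 bases before each RefSeq start site, at chr7:30944030-30944279 for Hamp and chr7:30924182-30924431 for Hamp2 (GRCm38.p6, minus strand), were identical at 89.72% of 253 aligned columns. Capitals mark the BMP-responsive element GGCGCC of Hamp with the aligned bases of Hamp2, and the STAT motif TTCNNNGAA.
Hamp: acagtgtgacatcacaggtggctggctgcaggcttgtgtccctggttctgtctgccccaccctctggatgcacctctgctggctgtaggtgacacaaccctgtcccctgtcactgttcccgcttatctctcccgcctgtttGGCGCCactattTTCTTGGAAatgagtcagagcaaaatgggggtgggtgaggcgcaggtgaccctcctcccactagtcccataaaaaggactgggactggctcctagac
Hamp2: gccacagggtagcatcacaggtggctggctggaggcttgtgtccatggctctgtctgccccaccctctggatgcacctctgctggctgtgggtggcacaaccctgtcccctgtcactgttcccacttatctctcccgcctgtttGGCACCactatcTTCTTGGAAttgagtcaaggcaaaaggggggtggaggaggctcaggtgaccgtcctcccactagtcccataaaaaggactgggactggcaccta
The element began 109 bases before the start of Hamp, and its aligned bases, 106 before the start of Hamp2, held the substitution G4A, counted from 1 at the 5′ base of the element in Hamp. The STAT motif was TTCTTGGAA in both. Both motifs read the same on either strand, and 9.59% of all 32851 RefSeq promoter windows of this length held GGCGCC and 7.02% held TTCNNNGAA. A match of letters is a description of the window and not a test of binding.

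Of the members, 4 carry the iron-responsive element, the hairpin through which IRP1 and IRP2 control translation (elements in the 5′ UTR) or mRNA stability (elements in the 3′ UTR). The transcripts were searched on their own strand for a C, 5 bases, CAGTG and 1 base, then 5 bases able to pair with the first 5. In GENCODE transcripts on GRCm38 the 5′ UTR of Slc40a1 (chromosome 1), Fth1 (chromosome 19) and Ftl1 (chromosome 7) each held 1 match and the 3′ UTR of Tfrc (chromosome 16) held 4, with the 6-base loop in capitals below.
Slc40a1: ccaacttcagctaCAGTGTtagctaagttt
Fth1: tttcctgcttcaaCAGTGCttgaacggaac
Ftl1: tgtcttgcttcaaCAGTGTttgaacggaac
Tfrc element 1: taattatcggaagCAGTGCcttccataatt
Tfrc element 2: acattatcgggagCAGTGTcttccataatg
Tfrc element 3: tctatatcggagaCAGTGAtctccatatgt
Tfrc element 4: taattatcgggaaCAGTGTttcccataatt
Such a match was found in the 5′ UTR of 0.102% of 20561 genes and in the 3′ UTR of 0.468% of 20937 genes. The other 6 members had none in either UTR. None of these 4 genes was called by edgeR in any comparison, and Ftl1 alone had an unadjusted p under 0.05, in CLP versus sham (as did 28.6% of all genes) and in CLP+DCA versus CLP (10% of all genes).

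Levels of different genes were compared per length, as CPM per kilobase of exon. In sham livers Hpx (9441 ± 724 CPM per kilobase, SD, n = 4) and Hp (9366 ± 709) were highest and did not differ beyond their spread. Ftl1 (2555 ± 141) and Hamp (2085 ± 525) followed and also lay within each other's spread, and Fth1 stood below them at 909 ± 82.3. The length used for Fth1, the union of its exons, was 1558 bases, against 929 for its transcript, so its distance from Hamp and Ftl1 depends on that choice. Tfr2 was at 183 ± 8.30 and Slc40a1 at 37.0 ± 6.63. At the low end were Hamp2 (10.1 ± 5.38) and Tfrc (5.52 ± 0.794), whose mice overlapped, and Bmp6 (0.885 ± 0.179). The order thus had the secreted heme and hemoglobin binders at the top, iron storage and the hormone next, and the ligand Bmp6, which in liver is made mainly by sinusoidal endothelium, at the bottom.

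**Figure D1:**
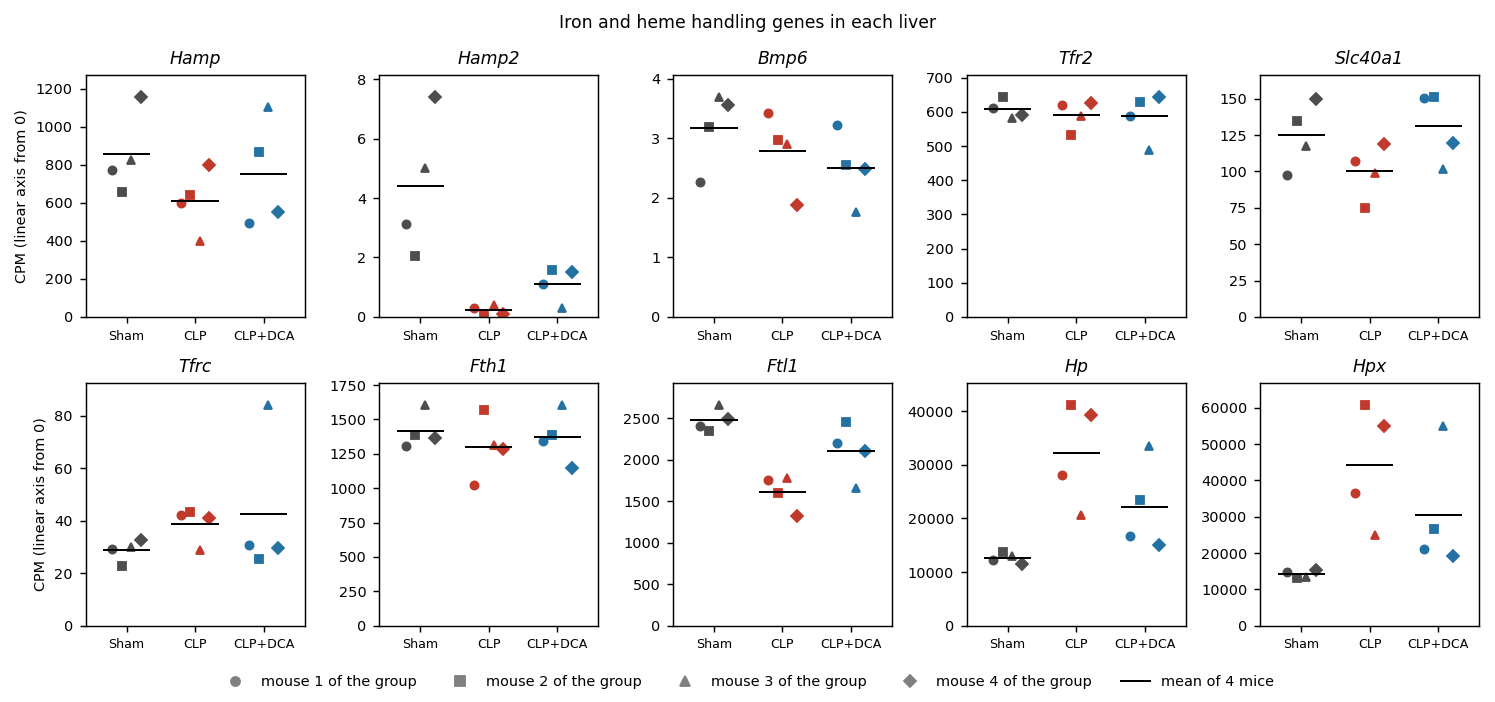
Expression of the 10 genes in each of the 12 livers, in CPM on linear axes from 0, with 1 symbol per mouse and a line at the mean of 4 mice. Hp and Hpx lie above all sham mice in every CLP and CLP+DCA mouse, Hamp2 lies below all sham mice in both groups, and CLP+DCA mouse 3 (triangle) is within the CLP range for Hamp2, Ftl1, Hp and Hpx.

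The question of the CLP versus sham comparison is what sepsis at 30 hr does to the liver's transcripts. Among the 10 genes, the hemoglobin and heme scavengers Hp and Hpx rose, the minor hepcidin gene Hamp2 fell, and the other 7, Hamp among them, did not pass the test. This is 3 of 10 members called, where 2.78% of all genes tested were called in this comparison. The members were chosen with earlier results of these data known, so this difference in shares is a description. In 4 members (Hp, Hpx, Hamp2 and Ftl1) the CLP mice did not overlap the sham mice, which held for 26.5% of all genes tested. The median log2FC was -0.15 over the members and 0.02 over all genes tested.

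Haptoglobin (Hp, NCBI Gene 15439, chromosome 8 from 109575128 to 109579172, coordinates here and below on mm10 as deposited) binds free hemoglobin for uptake through CD163. It was measured at 12327, 13670.3, 12964 and 11426 CPM in the sham mice. In the CLP mice Hp was at 28013, 41093, 20724 and 39209.5 CPM. The groups did not overlap, and the lowest CLP mouse, mouse 3, was still above the highest sham mouse. The log2FC was 1.36 (SE 0.28, adjusted p = 0.0390 by edgeR's quasi-likelihood test), a 2.56-fold higher level.

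Hemopexin (Hpx, NCBI Gene 15458, chromosome 7 from 105591611 to 105600116), which carries free heme to the liver, ranked the CLP mice in the same order. Hpx was at 14836, 13077, 13391 and 15305 CPM in sham and at 36417, 60661, 25055 and 55089 CPM in CLP. CLP mice 2 and 4 were highest in both scavengers and CLP mouse 3 lowest. The log2FC of Hpx was 1.65 (SE 0.36, adjusted p = 0.0426 by the same test), a 3.13-fold higher level. Together Hp and Hpx took 2.75 to 2.87% of all reads in sham and 4.77 to 8.70% in CLP.

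The calls of Hp and Hpx both lay close to the threshold. Leaving out any 1 of the 4 sham mice, CLP mouse 1, 2 or 4, or CLP+DCA mouse 1 or 2 left neither past it, with adjusted p up to 0.119 for Hp and 0.125 for Hpx, while the log2FC values stayed at 1.22 or above for Hp and 1.46 or above for Hpx. Neutrophil markers (10 genes) summed to 28.4 to 41.0 CPM in CLP against 4.97 to 6.40 CPM in sham, with 1 of the 8 markers tested called and Camp at 0 in all sham mice. The largest were S100a8 and S100a9 (11.0 and 13.6 CPM in CLP on average). The estimates of 7 of the 8 were higher in CLP, and 1, Ly6g, was lower (0.823 CPM in sham and 0.459 CPM in CLP). Mpo, which was not tested, was also lower (0.0557 and 0.0242 CPM). The part of these markers in the results of Hp and Hpx was not tested.

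Hamp2 (NCBI Gene 66438), which is not known to regulate iron as Hamp does, was measured at 3.12, 2.06, 5.0 and 7.41 CPM in sham, from 84, 83, 158 and 271 reads. In CLP it was at 0.300, 0.0957, 0.387 and 0.0898 CPM, from 13, 2, 16 and 2 reads. Every CLP mouse lay below every sham mouse, and CLP mice 2 and 4, which had the most Hp and Hpx, had the least Hamp2. The log2FC was -4.17 (SE 0.62, adjusted p = 0.0196 by edgeR's quasi-likelihood test), and Hamp2 was 15th by p among the 13190 genes. Without sham mouse 1, sham mouse 3, CLP mouse 2 or CLP mouse 4 the adjusted p was 0.0501 to 0.0736, with log2FC values of -4.32 to -3.96. The exons of Hamp2 overlap those of a noncoding gene on the opposite strand, Gm44662, whose reads cannot be told apart without strand.

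Hamp itself (NCBI Gene 84506) was at 775, 657, 828 and 1159.5 CPM in sham and at 598, 641, 402 and 802 CPM in CLP. The groups overlapped, and CLP mouse 4 was above sham mice 1 and 2. The log2FC was -0.49 (SE 0.29, adjusted p = 0.274 by edgeR). As background, hepcidin is known to be raised early in inflammation. At 30 hr no CLP mouse was above the highest sham mouse, and the estimate lay below sham under every setting tried, between -0.68 and -0.30.

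The share of Hamp2 among the reads of both hepcidin genes does not depend on library size. It was 0.402, 0.312, 0.601 and 0.635% in the sham mice and 0.0501, 0.0149, 0.0962 and 0.0112% in the CLP mice. The highest CLP mouse had a 95% exact binomial interval of 0.0550 to 0.156% and the lowest sham mouse one of 0.248 to 0.386%, intervals that cover counting error only. The share differed between the groups by -0.44 percentage points (two-sided exact permutation test of 4 against 4 mice, p = 0.0286, the smallest this design allows, adjusted p = 0.0429 over 3 comparisons). Hamp2 thus changed relative to Hamp, and not only relative to the whole library.

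**Figure D2:**
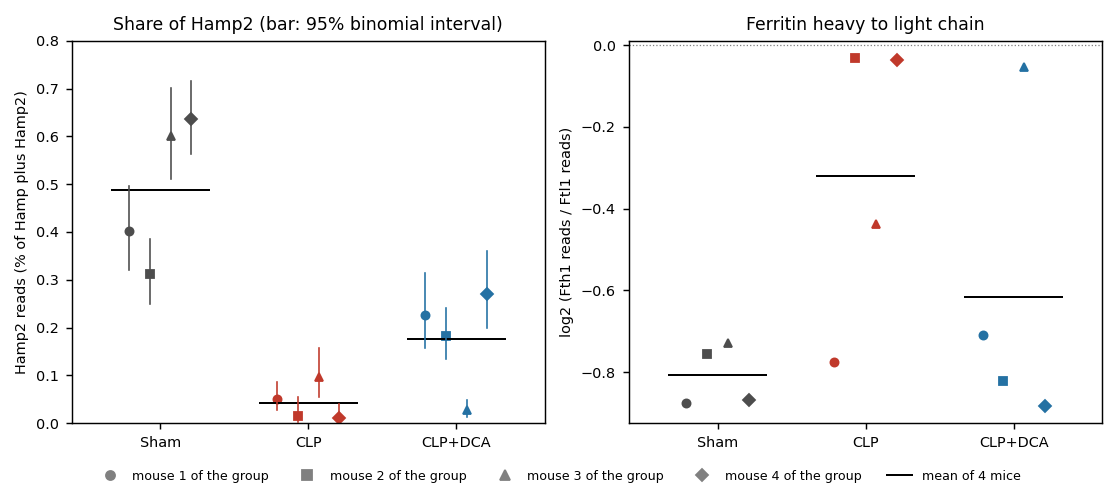
Left, Hamp2 reads as a percentage of Hamp plus Hamp2 reads in each mouse, with 95% exact binomial intervals as bars. Right, log2 ratio of Fth1 to Ftl1 reads in each mouse. Lines are means of 4 mice. The 4 CLP mice have Hamp2 shares of 0.0112 to 0.0962%, all below the sham mice (0.312 to 0.635%), and the ferritin ratio of CLP mice 2 and 4 and CLP+DCA mouse 3 is close to 0 on the log2 scale.

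Neither of the upstream inputs of hepcidin among the members was called. Bmp6 (NCBI Gene 12161, chromosome 13 from 38345716 to 38500314), the ligand that reports iron stores, had 2.27, 3.19, 3.70 and 3.56 CPM in sham and 3.43, 2.97, 2.90 and 1.89 CPM in CLP, with full overlap of the groups and a log2FC of -0.18 (SE 0.23, adjusted p = 0.617 by edgeR). These values rest on 42 to 149 reads per mouse in all 12 livers, and Bmp6 shares exonic sequence with Txndc5 on the opposite strand. Tfr2 (NCBI Gene 50765, chromosome 5 from 137569840 to 137588081), the receptor with which hepatocytes read transferrin saturation, had the smallest SE of the 10 genes, with 583 to 645 CPM in sham, 532 to 626 CPM in CLP and a log2FC of -0.04 (SE 0.12, adjusted p = 0.839).

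For iron export and uptake, neither gene was called. The exporter gene Slc40a1 (NCBI Gene 53945, chromosome 1 from 45908070 to 45925594) had 97.8, 135, 117 and 149.7 CPM in sham and 107, 74.8, 99.2 and 119 CPM in CLP, a log2FC of -0.32 (SE 0.18, adjusted p = 0.255 by edgeR). Tfrc (NCBI Gene 22042, chromosome 16 from 32608896 to 32632794) had 29.3, 22.9, 30.0 and 32.6 CPM in sham and 42.1, 43.5, 28.7 and 41.1 CPM in CLP. For Tfrc, CLP mice 1, 2 and 4 were above all sham mice and CLP mouse 3 lay among the sham mice. Its log2FC was 0.44 (SE 0.33, adjusted p = 0.385), and with CLP+DCA mouse 3 left out of the fit the same estimate of 0.44 had an adjusted p of 0.0440.

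Of the ferritin chains, the light chain lay near the threshold and the heavy chain did not. Ftl1 (NCBI Gene 14325, chromosome 7 from 45457944 to 45459886) was at 2400.0, 2342, 2655 and 2495 CPM in sham and at 1749.5, 1604, 1783 and 1316 CPM in CLP, and every CLP mouse was below every sham mouse. Its log2FC of -0.62 (SE 0.15) had an adjusted p of 0.0520 by edgeR, just outside the threshold, and was past it without CLP mouse 3 (0.0412) or without CLP+DCA mouse 3 (0.00775), by DESeq2 (0.000506 on all 12 mice) and by edgeR on the 8 mice compared (0.0200). Without any 1 of the other 10 mice it was not past the threshold, with an adjusted p of up to 0.136, and with the replicate number as a block it was 0.115. Fth1 (NCBI Gene 14319, chromosome 19 from 9980600 to 9985111) was at 1309 to 1602 CPM in sham and 1022 to 1569 CPM in CLP, overlapping groups with a log2FC of -0.13 (SE 0.16, adjusted p = 0.602). Counts of Ftl1 are uncertain, because 60.6% of the 100-base windows of its transcript also occur in 4 genes at other loci, its processed copies among them, and how reads with several matches were counted is not given in the sources used here.

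The log2 ratio of Fth1 to Ftl1 reads was -0.87, -0.76, -0.73 and -0.87 in sham and -0.78, -0.03, -0.44 and -0.04 in CLP. CLP mouse 1 lay within the sham range and CLP mice 2 and 4 had nearly equal reads of both chains. The means differed by 0.49 (two-sided exact permutation test of 4 against 4 mice, p = 0.0857, adjusted p = 0.257 over 3 comparisons). The difference was not larger than this test can tell from the spread between mice.

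**Figure D3:**
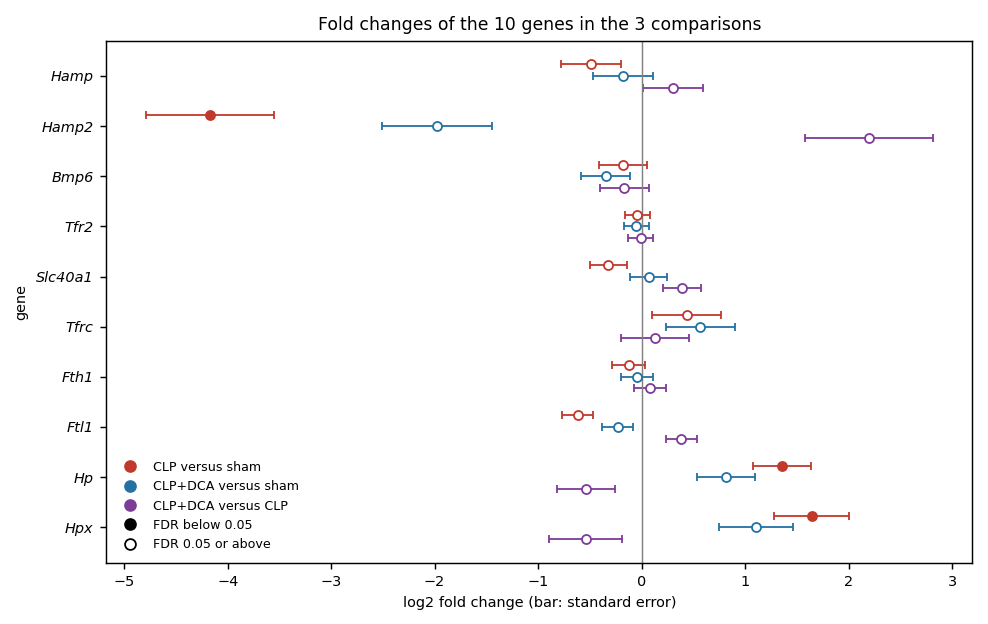
Log2FC values of the 10 genes in the 3 comparisons, with SE as bars and filled points where the FDR is below 0.05. Filled points are Hamp2 (-4.17), Hp (1.36) and Hpx (1.65) in CLP versus sham; no point of the comparisons with CLP+DCA is filled.

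With CLP+DCA the question is whether DCA, given for the last 6 hr, altered the septic state. In CLP+DCA versus sham none of the 10 members passed the test, where 0.0379% of all genes did (5 of 13190). An unadjusted p under 0.05 was found for 3 of them (Hp, Hpx and Hamp2) and for 13% of all genes. DESeq2 called 1 (Hamp2), among 247 of 18842 genes with reads on 12 mice and 169 of 18139 on 8 mice. Hp, Hpx and Hamp2 also had CLP+DCA mice that did not overlap the sham mice, against 9.76% of all genes. In CLP+DCA versus CLP none of the members passed either, where 0.00758% of all genes did (1 of 13190), and Hamp2 and 1 other member, Ftl1, had an unadjusted p under 0.05, as did 10% of all genes. No member had CLP+DCA mice clear of the CLP mice, against 4.37% of all genes. DESeq2 on all 12 mice called Hamp2, among 136 of 18842 genes with reads.

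Hp was at 16751, 23482, 33440.2 and 14973 CPM and Hpx at 21078, 26524, 54945 and 19258 CPM in the CLP+DCA mice. All 4 were above the highest sham mouse for both genes, mice 1 and 4 were below the lowest CLP mouse for both, and mouse 3 was within the CLP range. The log2FC values against sham were 0.82 for Hp (SE 0.28, adjusted p = 0.301 by edgeR) and 1.11 for Hpx (SE 0.36, adjusted p = 0.290). Against CLP both were -0.54 (SE 0.28 and 0.35, adjusted p = 0.545 and 0.641). Without mouse 3 the log2FC values against CLP were -0.81 for Hp and -0.99 for Hpx (adjusted p = 0.0678 and 0.0558), and against sham 0.55 and 0.65.

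Hamp2 was at 1.12, 1.58, 0.298 and 1.5 CPM in the CLP+DCA mice, from 35, 47, 11 and 47 reads. Mice 1, 2 and 4 lay between the highest CLP mouse and the lowest sham mouse, and mouse 3 lay among the CLP mice. The log2FC was -1.98 against sham (SE 0.53, adjusted p = 0.238 by edgeR) and 2.20 against CLP (SE 0.62, adjusted p = 0.316). Without mouse 3 the change against CLP was 2.49, with an adjusted p of 0.0310 by edgeR. This removal was chosen from these data and makes a difference from CLP easier to call. Leaving out 1 mouse at a time gave adjusted p values of 0.0310 to 0.633.

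The share of Hamp2 among hepcidin reads was 0.226, 0.182, 0.0270 and 0.271% in CLP+DCA. All 4 mice were below the sham mice (difference -0.31 percentage points, two-sided exact permutation test, p = 0.0286, adjusted p = 0.0429), and without any 1 of the 4 CLP+DCA mice the adjusted p was 0.0571 to 0.0857. Against CLP the share was higher by 0.13 points (exact permutation test, p = 0.0857, adjusted p = 0.0857), and by 0.18 points without mouse 3 (adjusted p = 0.0429).

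Hamp in CLP+DCA mice was at 493, 869, 1102 and 551 CPM, spanning most of the sham and CLP ranges, with log2FC values of -0.18 against sham and 0.30 against CLP (SE 0.29, adjusted p = 0.783 and 0.752 by edgeR), or -0.42 and 0.06 without mouse 3. Mouse 3, the lowest of its group for Hamp2, was the highest for Hamp. Ftl1 was at 2199, 2455, 1664 and 2109.8 CPM, with mouse 3 within the CLP range and the others above it. Its log2FC was 0.39 against CLP (SE 0.15, adjusted p = 0.437) and -0.23 against sham (adjusted p = 0.511), or 0.48 (adjusted p = 0.0566) and -0.13 (adjusted p = 0.824) without mouse 3. The ratio of Fth1 to Ftl1 in CLP+DCA was -0.71, -0.82, -0.05 and -0.88 on the log2 scale, again with mouse 3 apart, and neither the difference from sham (exact permutation test, adjusted p = 0.457) nor that from CLP (adjusted p = 0.386) passed. Without mouse 3 these differences were 0.0026 (adjusted p = 0.971) and -0.48 (adjusted p = 0.129).

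For the transferrin receptor, mouse 3 decided the group value. Tfrc was at 30.7, 25.4, 83.9 and 29.7 CPM in CLP+DCA, so that mouse 3 was above every other liver and the other 3 lay within the sham range. The log2FC against sham was 0.57 (SE 0.33, adjusted p = 0.470 by edgeR) with mouse 3 and -0.0018 without it. Slc40a1 was at 151, 151, 102 and 119 CPM, with log2FC values of 0.07 against sham and 0.39 against CLP (SE 0.18, adjusted p = 0.873 and 0.504). Fth1 (1145 to 1603 CPM), Tfr2 (488 to 645 CPM) and Bmp6 (1.76 to 3.22 CPM) overlapped both other groups.

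The members were set beside 69 other genes of the pathway, in 8 lists by role. The filter kept 67, and of these 4 rose and 3 fell in CLP versus sham, 10.4% of those tested against 2.78% of all genes. The lists were written with earlier results of these data known, so this difference in shares is a description. The median log2FC of the 67 genes was 0.02, as over all genes. By list it was 3.03 for plasma carriers, 0.94 for uptake and reduction, 0.37 for the IL-6 arm, 0.32 for heme uptake and breakdown, 0.04 for the BMP-SMAD arm, -0.22 for heme synthesis, -0.25 for mitochondrial iron and -0.26 for iron sensing. The median for plasma carriers is over 4 genes, and 1 of them, Ltf (log2FC 5.67, SE 1.67), was near the floor at 0.0274 CPM in sham on average. In the comparisons with CLP+DCA edgeR called none. DESeq2 on all 12 mice called 2 in each, among 247 genes in all against sham and 136 against CLP. An unadjusted p under 0.05 was found for 19 of the 67 against sham, where 13% of all genes had one, and for 10 against CLP, where 10% did. Without CLP+DCA mouse 3 edgeR called none against sham and 7 against CLP, namely Hfe2, Socs3, Cp, Lcn2, Ltf, Alas1 and Slc25a37, of which Ltf and Alas1 are named after their values were seen. In that fit 616 of all genes tested were called against CLP, where 1 was called with all 12 mice. In CLP versus sham none of the 7 calls held without sham mouse 1, 2 or 3, CLP mouse 2 or CLP mouse 4, 1 was made without sham mouse 4, 2 without CLP mouse 1, 13 without CLP mouse 3 and 30 without CLP+DCA mouse 3. These 30 included Socs3, Il6ra, Cp, Steap4, Ireb2, Hmox1, Cpox and Fech, which did not pass with all 12 mice. In that fit 3157 of all genes were called in CLP versus sham.

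**Figure D4:**
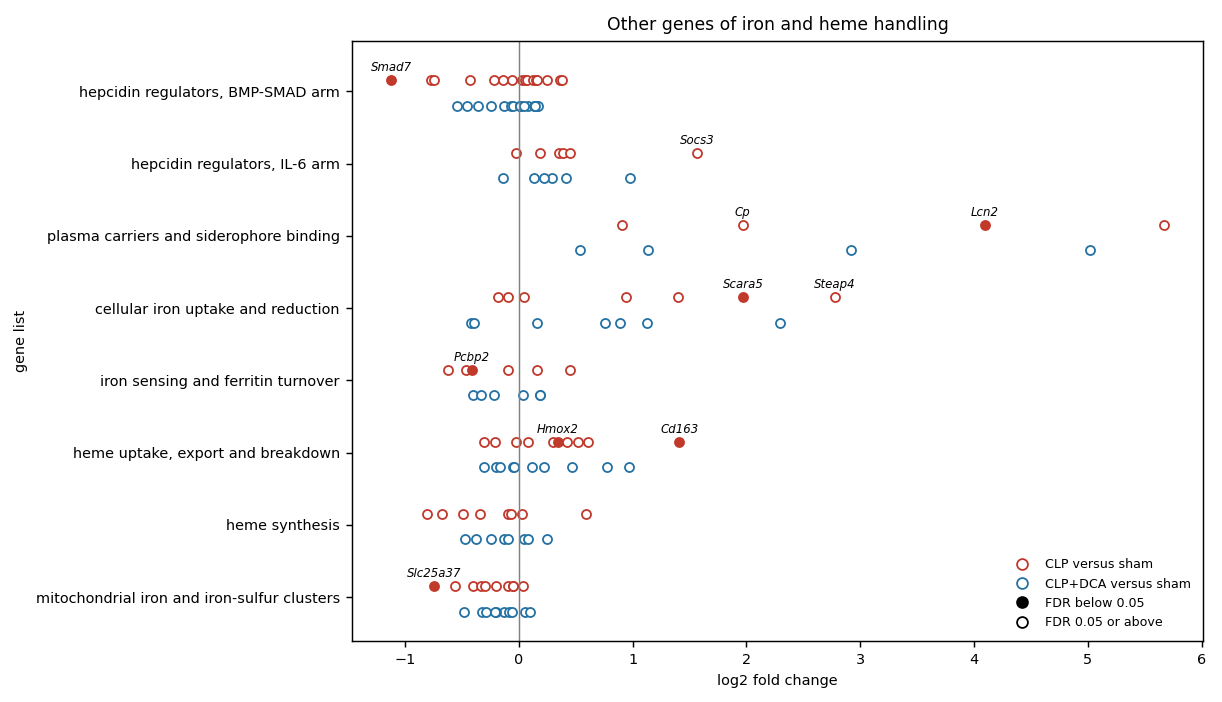
Log2FC values of 67 other genes of iron and heme handling in 8 lists, for each septic group against sham, with filled points where the FDR is below 0.05. Filled points are Lcn2 (4.09), Scara5 (1.97), Cd163 (1.41), Hmox2 (0.34), Pcbp2 (-0.42), Slc25a37 (-0.75) and Smad7 (-1.12), all in CLP versus sham.

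Among plasma carriers and siderophore binders, 4 of 4 genes were higher in CLP and 1 passed, where 2.78% of all genes did. Lcn2, lipocalin-2, which binds bacterial siderophores and so withholds iron from bacteria, was at 424, 472, 478 and 458 CPM in sham and at 3669, 13489, 3479 and 10651 CPM in CLP (log2FC 4.09, SE 0.76, adjusted p = 0.0294 by edgeR). Its CLP+DCA mice were at 1625, 1759.8, 9572 and 922 CPM, all above sham. Its log2FC for CLP+DCA versus CLP was -1.17 (adjusted p = 0.596), and -2.45 (adjusted p = 0.0275) without mouse 3. The part of the neutrophil markers given above, whose sum was also higher in CLP, was not tested. Cp, ceruloplasmin, the copper ferroxidase that loads iron onto transferrin, was at 1335 to 1647 CPM in sham against 2813 to 8511 CPM in CLP (log2FC 1.97, SE 0.52, adjusted p = 0.0623), and its change from CLP to CLP+DCA was -0.83 (adjusted p = 0.619), or -1.69 (adjusted p = 0.0281) without mouse 3. As for Hp and Hpx, CLP mice 2 and 4 and CLP+DCA mouse 3 had the highest values of Lcn2 and Cp.

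Among 7 genes of cellular uptake and reduction, 1 rose and none fell in CLP versus sham, where 2.78% of all genes were called. Scara5, a receptor for ferritin, was at 41.5, 37.2, 15.1 and 42.3 CPM in sham and at 120, 178, 92.3 and 143 CPM in CLP (log2FC 1.97, SE 0.39, adjusted p = 0.0345 by edgeR). Steap4, a metalloreductase, was higher in every CLP mouse (788 to 3131 CPM) than in any sham mouse (217 to 326 CPM), with a log2FC of 2.77 (SE 0.72) and an adjusted p of 0.0585.

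Of the 16 tested genes of the BMP-SMAD arm of hepcidin control, 1 fell and none rose, against 2.78% of all genes called. Smad7, an inhibitory SMAD that BMP signaling induces, was at 14.0, 13.9, 13.4 and 13.0 CPM in sham and at 6.71, 6.37, 5.54 and 6.33 CPM in CLP (log2FC -1.12, SE 0.20, adjusted p = 0.0257 by edgeR). The sham and CLP mice were well apart, while the CLP+DCA mice (5.81, 8.94, 13.8 and 8.72 CPM) spread over both ranges, and here mouse 3 was at the sham level. Hfe2, hemojuvelin, the BMP co-receptor needed for hepcidin expression, was at 77.4 to 85.5 CPM in sham, 96.0 to 117 CPM in CLP and 61.4 to 72.2 CPM in CLP+DCA. These 3 groups did not overlap. The log2FC values of Hfe2 were 0.38 for CLP versus sham (SE 0.09, adjusted p = 0.0510), -0.62 for CLP+DCA versus CLP (SE 0.09, adjusted p = 0.0718) and -0.24 for CLP+DCA versus sham (SE 0.09, adjusted p = 0.319). Hfe2 was called in the first and second of these by DESeq2, without CLP mouse 3, and without CLP+DCA mouse 3 (adjusted p = 0.0144 and 0.0155), and not in the third without CLP+DCA mouse 3 (adjusted p = 0.465).

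In the IL-6 arm edgeR on all 12 mice called none of 6 tested genes in CLP versus sham. An unadjusted p under 0.05 was found for 2 of them, against 28.6% of all genes. With CLP+DCA mouse 3 out of the fit edgeR called Socs3 and Il6ra (adjusted p = 0.000472 and 0.0112), with 3157 of all genes called. On the 8 mice compared edgeR also called both, with 2387 of all genes called. Without any 1 of the sham mice edgeR called none of the list. Socs3, the feedback inhibitor that STAT3 induces, was at 39.7 to 59.6 CPM in sham and 131 to 157 CPM in CLP (log2FC 1.57, SE 0.38, adjusted p = 0.0522 by edgeR), and the CLP+DCA mice were at 74.3, 45.8, 198 and 56.8 CPM. Against CLP the log2FC of Socs3 in CLP+DCA was -0.59 (adjusted p = 0.632), and -1.26 (adjusted p = 0.0101) without mouse 3. Il6ra, a chain of the IL-6 receptor, lay at 34.4 to 45.8 CPM in sham against 51.6 to 59.4 CPM in CLP (log2FC 0.45, SE 0.18, adjusted p = 0.126). Il6 itself did not pass the filter, nor did erythroferrone, and neither was tested.

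In heme uptake, export and breakdown 2 of 10 genes rose and none fell by the test, against 2.78% of all genes called. Of the estimates, 7 were above 0 and 3 below. Cd163, the macrophage receptor for haptoglobin bound to hemoglobin, was at 12.1, 8.15, 9.43 and 5.09 CPM in sham and at 29.4, 25.3, 20.9 and 16.6 CPM in CLP (log2FC 1.41, SE 0.32, adjusted p = 0.0461 by edgeR). Summed Kupffer cell and macrophage markers were 191 to 317 CPM in sham and 298 to 378 CPM in CLP, and their part in this result was not tested. None of these 10 markers was called, and Marco alone (9.91 CPM in sham and 58.6 CPM in CLP on average) had an unadjusted p under 0.05. The estimates of 9 were higher in CLP, and 1, Clec4f, was lower (59.4 and 49.1 CPM). Hmox2, the constitutive heme oxygenase, rose by 0.34 on the log2 scale (29.1 ± 1.46 CPM in sham, 37.0 ± 1.34 CPM in CLP, SD, n = 4, adjusted p = 0.0390 by edgeR). The inducible heme oxygenase Hmox1 had a log2FC of 0.61 and did not pass (adjusted p = 0.281), and is named here although it lay outside the naming rule.

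In iron sensing and ferritin turnover 1 of 6 genes fell and none rose, where 2.78% of all genes were called. Pcbp2, an iron chaperone that also binds RNA, was at 119 to 158 CPM in sham and 94.4 to 107 CPM in CLP (log2FC -0.42, SE 0.10, adjusted p = 0.0489 by edgeR). Ireb2, which encodes the iron regulatory protein IRP2 that binds the elements shown above, was at 139 ± 25.1 CPM in sham against 101 ± 2.35 CPM in CLP (SD, n = 4), with a log2FC of -0.47 (SE 0.15, adjusted p = 0.0815).

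Mitochondrial iron and iron-sulfur cluster genes were lower in CLP for 9 of 10 (median log2FC -0.25, against 0.02 over all genes). This count by direction was not tested. An unadjusted p under 0.05 was found for 4 of the 10, against 28.6% of all genes, and 1 passed, where 2.78% of all genes did. Slc25a37, mitoferrin-1, which imports iron into mitochondria, was at 47.8, 46.3, 48.3 and 41.7 CPM in sham and at 29.7, 25.7, 27.3 and 27.0 CPM in CLP (log2FC -0.75, SE 0.12, adjusted p = 0.0202 by edgeR), and at 24.6 to 37.1 CPM in CLP+DCA, a log2FC of 0.27 against CLP (adjusted p = 0.496), or 0.38 (adjusted p = 0.0281) without mouse 3. Summed erythroid markers, nearly all from Alas2, were 82.2 to 91.5 CPM in sham and 36.5 to 60.0 CPM in CLP, and their part in this result was not tested. The 4 globin genes listed had a count of 0 in every mouse. How reads with several matches were counted is not given, so these zeros do not show that globin RNA was absent.

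In heme synthesis edgeR called none of 8 genes, 4 of which had an unadjusted p under 0.05, against 28.6% of all genes. Cpox, coproporphyrinogen oxidase (log2FC 0.59, SE 0.17, adjusted p = 0.0695 by edgeR), was higher and Fech, ferrochelatase (-0.49, SE 0.16, adjusted p = 0.0819), was lower in every CLP mouse than in any sham mouse.

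The genes whose pattern over the 12 mice was most like a member's were found among 9079 genes of at least 5 CPM, by the root mean square difference of log2 CPM standardised to a mean of 0 and an SD of 1. This is a description, since all genes were measured in the same libraries. Orm1, Saa1 and Saa2, acute phase genes, were nearest to Hp (0.15, 0.18 and 0.18), and Serpina3n, Susd6 and Serpina3m to Hpx (0.14, 0.15 and 0.18). Hdgf, Tdp2 and Ces1b were nearest to Hamp2 (all 0.26), and Thrsp, a lipogenic gene, Prdx1 and Pdcd2 to Ftl1 (0.22, 0.23 and 0.23). The neighbours of Tfrc were Ddx21, Dhx38 and Btg2 (0.28 to 0.31) and those of Tfr2 Abhd15, Proz and Kalrn (0.31 to 0.37).

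The other members had no gene so close. The nearest to Slc40a1 were B4galt5, Sptlc1 and Rala (0.39 to 0.53), to Fth1 Kars, Rpl15 and Rpl4 (0.42 to 0.45), to Hamp Vps16, Otud5 and Uchl3 (0.49 to 0.60) and to Bmp6 Slc9a3r2, Emc10 and Tm6sf2 (0.51 to 0.59). Hamp and Hamp2 had none of these neighbours in common.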

How the data were processed

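Whole-liver poly(A) RNA of 12 mice was sequenced as 100 bp paired ends. Per the labels and the study's methods, the authors aligned reads to mm10 with STAR 2.5 and counted them with featureCounts (Subread 1.5.0-p1). The deposited table holds the raw read counts per gene, without normalization. The annotation, strand setting and treatment of multiply matching reads are not given in the sources used here. Counts were filtered with filterByExpr (minimum count 10), scaled by TMM and fitted with edgeR 4.0.16 (robust quasi-likelihood, R 4.3.3) over all 12 mice. The standard error is the log2 fold change divided by the square root of F, and log2 CPM used a prior count of 2. The 2 read ratios were compared by exact permutation tests over mice. Per-length levels used exon unions of GENCODE genes (GRCm38), and sequences came from RefSeq GRCm38.p6 or GENCODE transcripts. Hp and Slc40a1 had no promoter entry.

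The members and lists were chosen with earlier results of these data known. Named were the members, listed pathway genes past the FDR in any comparison or with the 2 smallest p of their list, and the 3 genes most like each member. Scripts were tested on simulated data. Alternatives were RLE, upper quartile or library size scaling, no filter, DESeq2 1.42.0, edgeR on the 8 mice compared, the replicate number as a block, and leaving out each mouse. Mice are separate animals. Between 24436513 and 44266819 reads per mouse were counted. They carry no molecular identifiers, so PCR copies cannot be told from separate molecules, and intervals cover counting error at most. Marker lists covered hepatocytes, Kupffer cells and macrophages, sinusoidal endothelium (summed level 168 to 221 CPM in sham, 199.8 to 247 in CLP, 168 to 242 in CLP+DCA), neutrophils and erythroid cells. Some items that the rule for named genes selects are not reported here.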

Additional observations from a re-analysis of the deposited data

Results flagged for a closer look

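Of 36 groups of 4 mice examined (10 genes and 2 ratios in 3 groups), 2 held a mouse far from the other 3 by Dixon's gap test at the 95% level, where chance flags about 1 in 20, and both were Tfrc. In CLP, mouse 3 had 28.7 CPM of Tfrc against 41.1 to 43.5 CPM in the others. In CLP+DCA, mouse 3 had 83.9 CPM against 25.4 to 30.7 CPM in the others. The 2 mice share a replicate number, and the labels do not say whether the numbers pair mice across groups.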

How the results depend on the processing

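Directions of Hamp2, Hp, Hpx and Ftl1 in CLP versus sham were the same under all 20 alternatives, and their calls were not. Members called in CLP versus sham numbered 3, against 1 without a filter (Hamp2), 5 by DESeq2 on the 8 mice compared and 0 to 5 with 1 mouse left out. Of the other pathway genes, 7 were called, against 3 without a filter, 22 and 34 by DESeq2 on 12 and on 8 mice, 29 by edgeR on the 8 mice compared and 0 to 30 with 1 mouse left out. Of all genes, 367 were called, against 209 with library size alone, 122 without a filter, 1894 and 3428 by DESeq2, 2387 by edgeR on the 8 mice compared and 10 to 3157 with 1 mouse left out; both of the larger counts without CLP+DCA mouse 3 (30 and 3157) came with that mouse out of the shared estimate of spread. In CLP+DCA versus sham, DESeq2 called 1 member (on 12 or on 8 mice), 2 pathway genes (12 mice) and 247 or 169 genes in all, against 5 by edgeR, 3 with library size alone, 0 by edgeR on the 8 mice compared and 1 to 11 with 1 mouse left out. In CLP+DCA versus CLP, DESeq2 called 1 member on 12 mice, 2 pathway genes on 12 or on 8 mice, and 136 or 80 genes in all, against 1 by edgeR, 0 with upper quartile scaling, 0 by edgeR on the 8 mice compared and 0 to 616 with 1 mouse left out (members 0 to 1, pathway genes 0 to 7). The Hamp2 share differed from sham in CLP+DCA by -0.37 to -0.26 points with 1 mouse left out, and from CLP by 0.10 to 0.18. Why the other calls moved was not tested.

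The labels do not say that the replicate numbers pair the mice, and the main fit treats them as unpaired. Deviations of same-numbered mice correlated at -0.05 to 0.09 (CLP and sham), -0.16 to 0.09 (CLP+DCA and sham) and -0.46 to 0.55 (CLP+DCA and CLP). Such correlations cannot exclude a shared day of surgery or handling. With the replicate block, 0 members, 1 pathway gene (Cd163) and 46 genes in all were called in CLP versus sham, 0 genes in CLP+DCA versus sham and 4 in CLP+DCA versus CLP. In the paired form the Hamp2 share differences of -0.44 (CLP) and -0.31 (CLP+DCA) against sham had adjusted p = 0.188 by exact sign-flip permutation, which 4 pairs cannot bring below 0.05. With the block, Tfrc in CLP+DCA versus CLP was at -0.019 in place of 0.13.

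Estimates near 0 that changed sign, none past the test, were Tfr2 in CLP+DCA versus CLP (0.11 with library size alone, -0.058 to 0.069 with 1 mouse left out), in CLP versus sham (-0.069 to 0.0076) and in CLP+DCA versus sham (-0.098 to 0.029), Fth1 (-0.13 to 0.028 in CLP+DCA versus sham, -0.020 to 0.18 in CLP+DCA versus CLP), Slc40a1 in CLP+DCA versus sham (-0.033 to 0.17) and Tfrc (-0.0018 to 0.76 in CLP+DCA versus sham, -0.44 to 0.30 in CLP+DCA versus CLP). Hamp2 in CLP (2 to 16 reads per mouse) and Bmp6 are the members that depth limits most.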
